A study of Mus musculus with 15 samples.

Results

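The expression of 10 genes known from granule cells and unipolar brush cells was compared across 2 brain regions, cerebellum (Ce) and striatum (St), and across 2 mouse lines, one bred for high voluntary wheel running (Hi) and one control (Co). The genes were Neurod1, Neurod2, Zic1, Zic2, Zic4, Etv1, Cadps2, Fat2, Eomes and Calb2, and their rows were taken by symbol, from a list made with earlier results of these data known. All 10 were among the 26628 genes of the table, and all 10 were among the 15213 genes that passed the filter on low values and were tested. The groups were CeCo (4 samples), CeHi (4 samples), StCo (4 samples) and StHi (3 samples), and 1 further StHi sample was removed by the study and was not analysed here. All samples came from male Hsd:ICR mice with an age of 6 weeks in the labels, and mice of both lines lived with a running wheel and were sampled on day 7 of wheel access. The selected and the control state were each represented by 1 line of a replicated breeding experiment, so the effect of selection and chance drift between these lines cannot be told apart. Whole cerebellum and entire striatum were dissected, so in every comparison fewer cells of a type and less RNA per cell cannot be told apart. The direction of each line difference rests on the deposited labels alone, and the text of the study is not uniform in the direction it gives for some genes, En2 among them, so every sign between the lines carries that doubt.

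Granule cells are the small glutamatergic neurons of the granular layer of the cerebellum. They arise from Atoh1-positive progenitors of the rhombic lip, receive mossy fibre input and send parallel fibres to Purkinje cells. Unipolar brush cells are glutamatergic interneurons of the same layer, are most frequent in the vestibular lobules, and relay and prolong mossy fibre signals. Neurod1 and Neurod2 are basic helix-loop-helix factors of neuronal differentiation, Zic1, Zic2 and Zic4 are zinc finger factors of the dorsal neural tube and cerebellum, Etv1 is an ETS factor induced as granule cells mature, and Eomes (Tbr2) is the T-box factor that marks unipolar brush cells. Cadps2 encodes a priming factor for dense-core vesicle release, Fat2 an atypical cadherin on parallel fibres, and Calb2 the calcium-binding protein calretinin, which is made by granule cells and by a class of unipolar brush cells.

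The starts of 4 members are shown because these genes carry the comparisons that follow: Neurod1 and Neurod2 are a factor pair whose order was reversed in striatum, Zic1 stands for the Zic genes that varied together in striatum, and Eomes was the member whose cerebellum values did not overlap between the lines. Each window runs from 250 bases before to 50 bases after the start in RefSeq (GRCm38.p6), read on the strand of the gene. The windows are chr2:79456587-79456886 on the minus strand for Neurod1, chr11:98329596-98329895 on the minus strand for Neurod2, chr9:91365719-91366018 on the minus strand for Zic1 and chr9:118477939-118478238 on the plus strand for Eomes. Capitals mark the searched motifs: the E-box of Neurod factors written CAGATG, the E-box written CAGCTG and the palindrome written CATATG. The CCAAT box was also searched, as were the T-box motif written AGGTGTGA, the Zic motif written CAGCAGG and the promoter element written TATAA. Both strands were searched.
Neurod1: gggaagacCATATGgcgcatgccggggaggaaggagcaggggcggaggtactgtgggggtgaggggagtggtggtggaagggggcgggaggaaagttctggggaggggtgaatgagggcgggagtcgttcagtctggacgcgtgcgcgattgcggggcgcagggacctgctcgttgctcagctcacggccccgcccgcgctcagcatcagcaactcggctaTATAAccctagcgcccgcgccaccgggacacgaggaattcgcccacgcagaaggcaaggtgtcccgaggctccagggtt
Neurod2: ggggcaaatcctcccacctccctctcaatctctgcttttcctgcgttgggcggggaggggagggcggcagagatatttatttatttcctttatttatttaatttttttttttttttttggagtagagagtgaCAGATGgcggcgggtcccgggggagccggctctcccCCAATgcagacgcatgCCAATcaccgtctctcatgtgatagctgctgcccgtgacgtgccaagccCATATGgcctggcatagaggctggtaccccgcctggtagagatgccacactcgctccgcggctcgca
Zic1: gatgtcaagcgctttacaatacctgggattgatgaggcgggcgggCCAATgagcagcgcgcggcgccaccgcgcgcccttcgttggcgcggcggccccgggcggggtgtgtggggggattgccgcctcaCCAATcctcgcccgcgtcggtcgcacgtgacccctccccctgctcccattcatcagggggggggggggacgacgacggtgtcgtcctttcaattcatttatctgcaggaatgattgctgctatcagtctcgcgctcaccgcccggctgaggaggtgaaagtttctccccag
Eomes: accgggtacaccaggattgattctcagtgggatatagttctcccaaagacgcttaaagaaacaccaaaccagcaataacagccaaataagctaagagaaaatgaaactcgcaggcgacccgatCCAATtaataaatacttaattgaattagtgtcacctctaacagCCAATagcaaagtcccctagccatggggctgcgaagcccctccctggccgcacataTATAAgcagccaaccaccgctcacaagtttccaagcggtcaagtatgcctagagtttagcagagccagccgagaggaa
The palindromic E-box CATATG, which 3.9% of 32851 promoter windows of the same length hold, was found in both Neurod genes, with its first base at position -242 relative to the start in Neurod1 and at -17 in Neurod2. Neurod2 also held CAGATG (17.2% of all windows) and a pair of CCAAT boxes (37.4% of all windows hold at least 1). Zic1 and Eomes each held a pair of CCAAT boxes. AGGTGTGA (1.3% of all windows) was in none of the windows of the 8 members that matched the RefSeq table by symbol, and CAGCTG (16.3%) was in none of them either. TATAA (24.9%) was found at -29 in Neurod1 and at -28 in Eomes, and also in the windows of Fat2 and Etv1. CAGCAGG (10.5%) was found in the window of Fat2, and CAGATG in 1 of the 2 windows of Etv1. These matches describe letters in the windows only. No entry matched for Zic2 and Calb2.

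The deposited values were fragment counts divided by a factor per sample and are called normalized counts here. Totals were between 38499264 and 43669012 normalized counts per sample, and 1 fragment was worth between 0.841 and 1.30 normalized counts, which corresponds to 32909383 to 47485535 fragments per sample. No source states whether samples with the same number came from 1 mouse, and P-values measure only the spread between the samples of a group. The striatum samples held the markers of striatal projection neurons, with a summed level of 181875 to 250040 normalized counts over the 11 listed markers in the table against 9349 to 12737 in cerebellum. Among cerebellum samples, CeHi replicate 3 had the highest level of Drd2, the dopamine receptor of one class of striatal projection neurons, at 109 normalized counts against 18.7 to 33.6 in the other 7. The same sample was the highest of the cerebellum for the forebrain neuron genes Nrgn (2450 normalized counts against 184 to 279), Lhx2 (81.4 against 2.67 to 10.3) and Tac1 (189 against 17.8 to 56.3). Choroid plexus markers differed widely between samples of a group, and Ttr, the transthyretin gene of that tissue, ranged from 594 to 109529 normalized counts over the cerebellum samples. Neurod1 lies within the span of Cerkl on chromosome 2 (chr2:79452521-79456751, GRCm38), and 9.66% of the 50-base windows of its exons also occurred in another gene. This share was 9.08% for Etv1, 4.18% for Zic4, 2.096% for Eomes and at most 0.723% for the other members. The spans of Zic1 and Zic4 overlap by 3398 bases on opposite strands (chr9:91362413-91365810), and no source states that counting used strand.

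All 10 members were higher in cerebellum than in striatum. The list was made with earlier results of these data known, so this is not an independent check of the labelled tissue. All 10 passed the test of the region effect averaged over lines (limma, FDR-adjusted P between 1.11e-15 and 8.13e-07), where 42.2% of all tested genes were called higher in cerebellum. All 10 also passed it within the control line, where 39.0% of tested genes were called higher in CeCo, and within the selected line, where 37.1% were called higher in CeHi. Fat2 passed the filter on low values through its cerebellum samples only, so that for this gene a difference was bound to appear. The median log2 difference of the members was 3.78, against 0.03 over all tested genes. Fat2 had the largest difference among the members, at 11.18 on the log2 scale (SE 0.21), a 2320-fold higher level in cerebellum, and ranked 2 among the 15213 tested genes. Neurod1 followed with a log2 difference of 7.09 (SE 0.13, 136-fold) and Eomes with 5.87 (SE 0.41, 58.6-fold). Neurod2 had the smallest difference of the 10, at 2.26 (SE 0.14, 4.80-fold), and 2.89% of tested genes had a difference of this size or larger. The plot of each member by sample shows these gaps on a log axis.

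**Figure D1:**
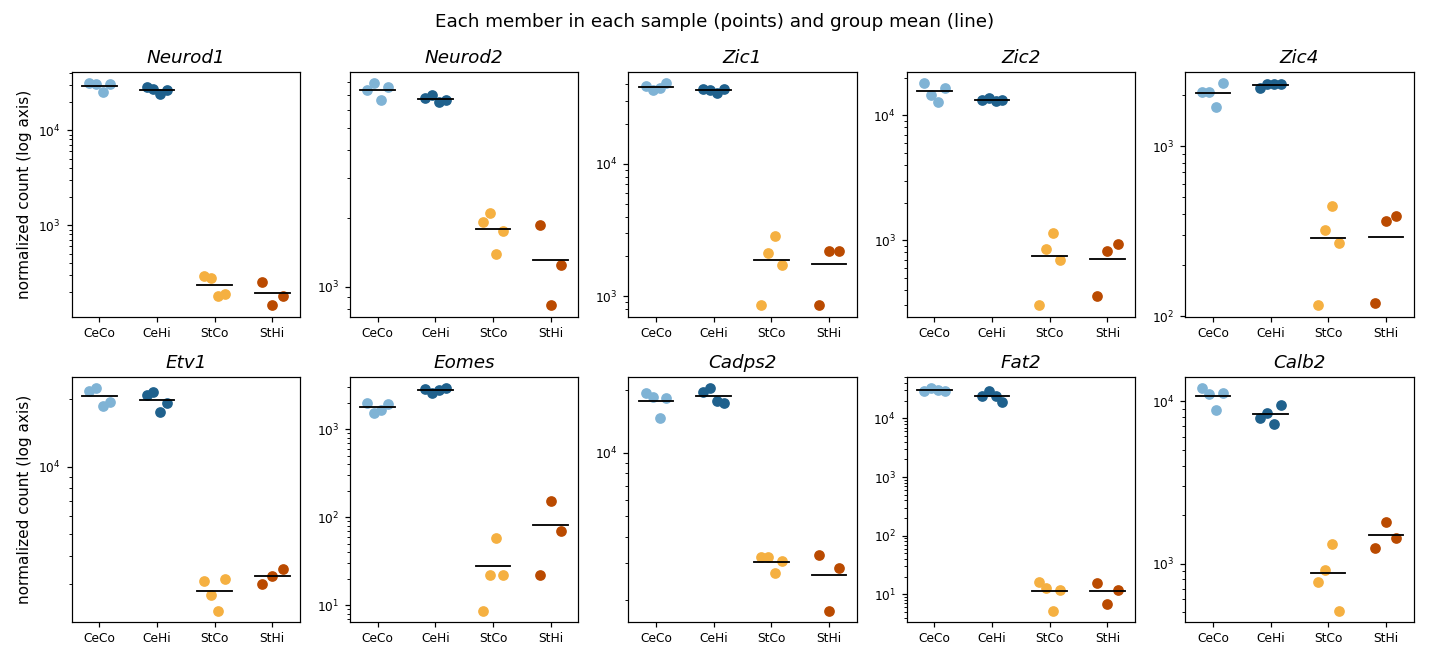
Normalized counts (log axis) of the 10 members in each of the 15 samples, with 1 panel a gene, a point for each sample and a line at each group mean. Every cerebellum sample lies above every striatum sample for each gene, and Eomes is the only panel in which the CeHi points (2602 to 2911) and the CeCo points (1521 to 2005) do not overlap.

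Levels of different genes were compared per kb of exon. In cerebellum, Neurod1 had the highest level of the 10, with 10293 ± 1030 normalized counts per kb (SD, n = 8). Zic1 (6565 ± 334), Zic2 (5911 ± 810.2) and Calb2 (5476 ± 991) followed, and these neighbours differed by less than the larger of their SDs. Cadps2 (2919.5 ± 275) and Etv1 (2807 ± 238) lay within their spread of each other, and Neurod2 (2247 ± 164) and Fat2 (1889 ± 301) were lower, each by more than the larger SD of the pair. Eomes (619 ± 153) and Zic4 (475 ± 48.1) were the lowest. They lay within the larger SD of each other, but that SD spans both lines, which did not overlap for Eomes. In CeCo Eomes was at 483 ± 62.6 and Zic4 at 450 ± 59.2. In CeHi they lay further apart, with Eomes at 756 ± 36.9 and Zic4 at 501 ± 13.5. In striatum the order changed. Calb2 (655 ± 253 normalized counts per kb, SD, n = 7), Neurod2 (506 ± 144), Cadps2 (460.4 ± 84.1), Etv1 (414 ± 55.5), Zic1 (324 ± 131) and Zic2 (297 ± 124) formed a series in which no neighbours differed beyond the larger of their SDs. Neurod1, the highest in cerebellum, was seventh in striatum at 79.1 ± 20.9, next to Zic4 at 63.6 ± 28.2. Eomes (13.7 ± 13.6) and Fat2 (0.789 ± 0.282) were the lowest.

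**Figure D2:**
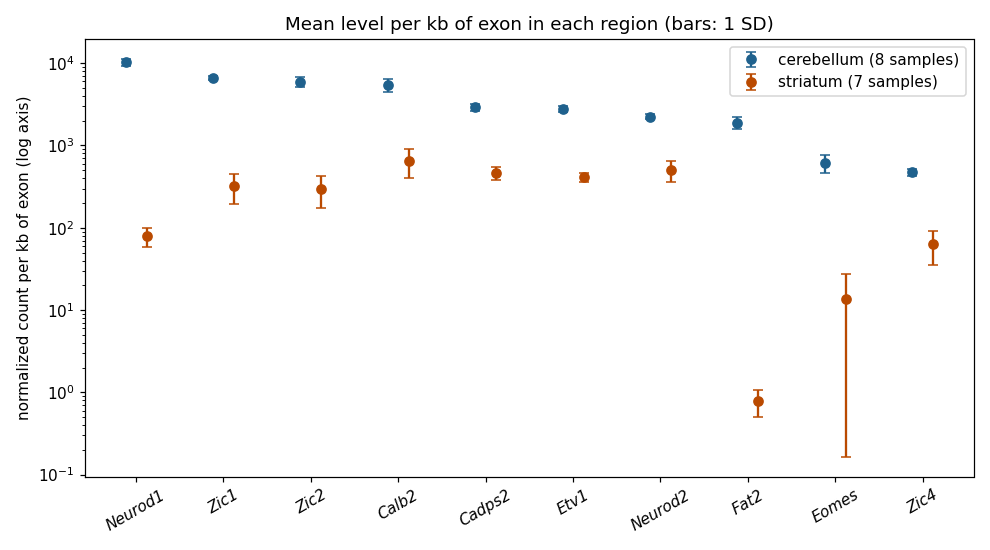
Mean normalized count per kb of exon (log axis) of each member in cerebellum (8 samples) and striatum (7 samples), with bars of 1 SD over samples of both lines and genes ordered by their cerebellum level. Neurod1 leads in cerebellum at 10293 and stands at 79.1 in striatum, and Fat2 has the lowest striatum level at 0.789.

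Neurod1 and Neurod2, the basic helix-loop-helix pair, parted between the regions. Neurod1 was at 31437, 30648, 25069.6 and 30999.5 normalized counts in CeCo and at 28821, 27034, 24053 and 26658 in CeHi, and every CeHi value lay below the CeCo values other than that of replicate 2. In striatum it was at 290.1, 277, 178.5 and 188 in StCo and at 254, 143 and 180.5 in StHi. The lines overlapped in both regions. The Neurod1 level in striatum was between 0.508% and 1.03% of its cerebellum mean. Neurod2 was at 7395, 7919.5, 6632 and 7586 normalized counts in CeCo and at 6800.3, 6989.7, 6499 and 6672 in CeHi. In striatum it was at 1921, 2112, 1398 and 1754 in StCo and at 1876, 825 and 1239.7 in StHi, so that its striatum level was between 11.7% and 29.9% of the cerebellum mean. The ratio of Neurod1 to Neurod2 in normalized counts was between 3.70 and 4.25 over the cerebellum samples and between 0.107 and 0.173 over the striatum samples.

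The 3 Zic genes were high in every cerebellum sample, and in striatum they were high or low in the same samples. Zic1 was at 38687, 36078, 37083 and 40755 normalized counts in CeCo and at 36493, 36056, 34537 and 36955 in CeHi. Zic2 was at 18177, 14555, 12802 and 16702 in CeCo and at 13189, 13670.4, 12936 and 13360.0 in CeHi. Zic4 was at 2086, 2075, 1692 and 2347 in CeCo and at 2189, 2313, 2318 and 2301 in CeHi. Each of the 3 overlapped between the lines in cerebellum, and the CeHi samples spanned a narrower range than the CeCo samples. In striatum, Zic1 was at 865, 2123, 2849 and 1727 normalized counts in StCo and at 852, 2210.3 and 2194 in StHi. Zic2 was at 299.9, 846, 1135 and 692 in StCo and at 358, 823 and 925 in StHi, and Zic4 was at 116, 323, 442 and 271.5 in StCo and at 121, 364 and 388 in StHi. The sample numbered 0 was the lowest of its group for all 3 genes in both StCo and StHi, and StCo replicate 2 was the highest of its group for all 3. The highest striatum sample exceeded the lowest by 3.34-fold for Zic1, 3.78-fold for Zic2 and 3.81-fold for Zic4, whereas the ratio of Zic1 to Zic2 stayed between 2.37 and 2.88 over the same samples. In cerebellum this ratio was between 2.13 and 2.90. The ratio of Zic1 to Zic4 was between 14.9 and 21.9 in cerebellum and between 5.65 and 7.46 in striatum. Within cerebellum the ratio of Zic2 to Zic4 was between 7.01 and 8.71 in CeCo and between 5.58 and 6.03 in CeHi, a gap noticed after the values were seen and not tested.

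Etv1, Cadps2 and Fat2 are 3 genes of granule cell maturation and parallel fibre output. Etv1 was at 18747 to 22435 normalized counts in CeCo (median 20715) and at 17532 to 21549 in CeHi (median 20063). In striatum it was at 3069.7, 2681, 2272 and 3136 in StCo and at 2987, 3232 and 3502 in StHi, which is 11.2% to 17.3% of its cerebellum mean. Cadps2 was at 14714 to 19234 normalized counts in CeCo (median 18409) and at 17327 to 20292 in CeHi (median 18550.2). In striatum it was at 3208, 3195, 2691 and 3061 in StCo and at 3289, 1783 and 2846 in StHi. Both genes overlapped between the lines in both regions. Fat2 was at 29934, 32729, 29953 and 29216 normalized counts in CeCo and at 24129, 29711, 24475.5 and 19378 in CeHi. The CeHi values lay lower, apart from replicate 1, which lay within the CeCo range. In striatum Fat2 was at 5 to 13 fragments in every sample, above the floor of 3 fragments, and at 0.0191% to 0.0585% of its cerebellum mean. Gabra6, the GABA-A receptor subunit of granule cells, was likewise at 0.0195% to 0.0441% of its cerebellum mean in striatum, while Zic1 was at 2.30% to 7.68%, Calb2 at 5.36% to 19.0% and Eomes at 0.378% to 6.67%.

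**Figure D3:**
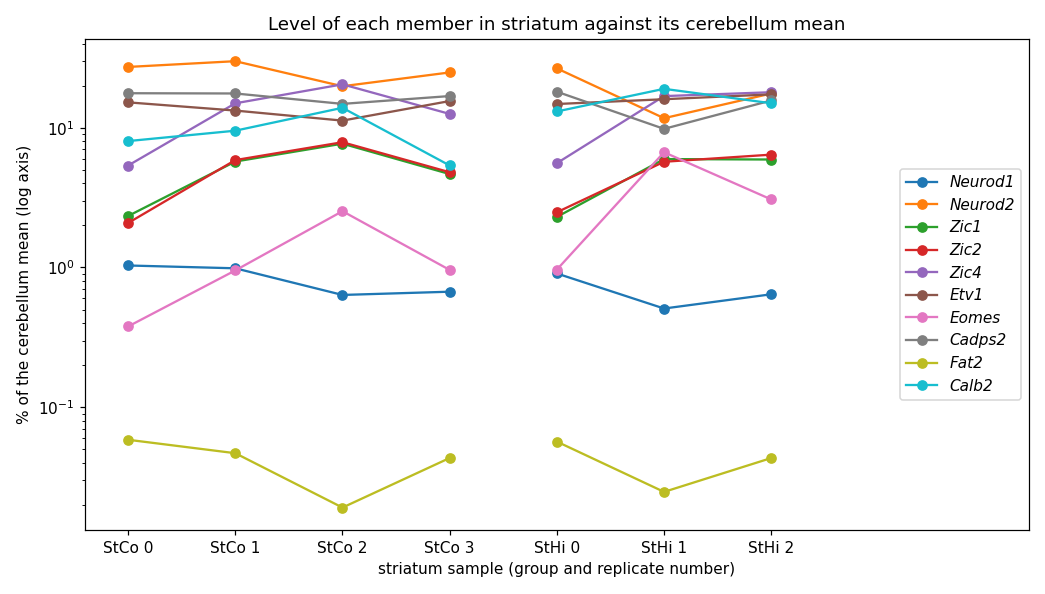
Level of each member in each striatum sample, as a percentage of its mean over the 8 cerebellum samples (log axis), with samples on the horizontal axis by group and replicate number and lines joining the points of a gene within a group. Zic1, Zic2 and Zic4 move in parallel and are lowest in the samples numbered 0, Neurod1 and Fat2 lie at or below 1.03%, and Neurod2 reaches 29.9%.

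Eomes, the unipolar brush cell factor, was higher in the cerebellum of the selected line in every sample. It was at 2005, 1521, 1656 and 1946 normalized counts in CeCo and at 2865, 2602, 2779.7 and 2911 in CeHi. The groups did not overlap, and the mean of CeHi (2789.6 ± 136, SD, n = 4) was 1.57-fold that of CeCo (1782 ± 231, SD, n = 4). The exact two-sided permutation test on log2 values gave P = 0.0286, the smallest value that 4 against 4 samples allow. Eomes was the only member of the 10 without overlap in cerebellum, and 7.20% of all tested genes lay higher in CeHi without overlap. In the fit of all 4 groups together the log2 difference was 0.66 (SE 0.56) and did not pass the test (limma, FDR-adjusted P = 0.57). That fit takes 1 spread for a gene from both regions, and the SD of Eomes was 76.6% of the mean in StCo and 80.9% in StHi against 12.98% in CeCo and 4.88% in CeHi. With the cerebellum fitted alone, the log2 difference was 0.65 (SE 0.085) and passed (limma, FDR-adjusted P = 0.000919), in a fit that called 5.55% of tested genes. It passed in the same fit without any 1 of the 8 cerebellum samples, with a log2 difference of 0.57 to 0.71 and an FDR-adjusted P of 0.0011 to 0.0055 in limma, an alternative chosen after seeing the data. Without CeHi replicate 3, the sample with forebrain neuron genes, the difference was 0.63 (limma, FDR-adjusted P = 0.0026). On the fragments recovered from the values, edgeR gave 0.64 (FDR-adjusted P = 0.21) and DESeq2 0.64 (FDR-adjusted P = 0.54) over all 4 groups.

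In striatum Eomes was at 8.64, 21.8, 57.8 and 21.9 normalized counts in StCo and at 22.1, 152 and 70.1 in StHi, from 7 to 157 fragments a sample. The lines overlapped, and the log2 difference of 1.44 (SE 0.60) did not pass (limma, FDR-adjusted P = 0.30). The 2 highest striatum values of Eomes after StHi replicate 1 were those of StHi replicate 2 and StCo replicate 2. StHi replicate 1 also held the lowest striatum levels of Neurod1, Neurod2 and Cadps2 and the lowest summed level of cortical and hippocampal excitatory neuron markers, at 62269 normalized counts against 80434 to 112745 in the other striatum samples. Whether these markers have a part in the Eomes or Neurod values was not tested.

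Calb2, the calretinin gene, lay lower in the cerebellum and higher in the striatum of the selected line, with overlap in both. It was at 12030.1, 11095, 8842 and 11203 normalized counts in CeCo and at 7938, 8460.3, 7241 and 9543 in CeHi, with CeCo replicate 2 inside the CeHi range. In striatum it was at 765, 908, 1324 and 512 in StCo and at 1247, 1810.2 and 1427 in StHi, with StCo replicate 2 inside the StHi range. The exact permutation test gave P = 0.0571 in cerebellum and P = 0.114 in striatum, where the smallest value that 4 against 3 samples allow is 0.0571. The log2 differences were -0.37 (SE 0.23) in cerebellum and 0.83 (SE 0.25) in striatum, and neither passed (limma, FDR-adjusted P = 0.41 and 0.11). Their difference, the line-by-region interaction, was -1.21 (SE 0.34) and had an FDR-adjusted P of 0.19 in limma. Without StCo replicate 2 the striatum difference was 1.06 (limma, FDR-adjusted P = 0.0092) and the interaction was -1.44 (limma, FDR-adjusted P = 0.024). With sample quality weights and all samples kept, the striatum difference of 0.90 also passed (limma, FDR-adjusted P = 0.033) and the interaction of -1.34 did not (limma, FDR-adjusted P = 0.055). With the cerebellum fitted alone, the difference of -0.39 (SE 0.0999) passed narrowly (limma, FDR-adjusted P = 0.0491), and it no longer passed without CeCo replicate 0, 1 or 3 or without CeHi replicate 0, 1 or 2 (FDR-adjusted P between 0.080 and 0.14). The ratio of Eomes to Calb2 in normalized counts was between 0.137 and 0.187 in CeCo and between 0.305 and 0.384 in CeHi, a contrast that follows from the values above and was not tested.

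Between the lines in cerebellum, none of the 10 members passed the test in the fit of all 4 groups (limma), where 5.82% of tested genes were called, and none had an unadjusted P under 0.05, where 19.6% of tested genes did. On recovered fragments edgeR called none of the 10 and 6.26% of tested genes, and DESeq2 called 9.14% of tested genes and 1 member, Fat2, with a log2 difference of -0.32 (FDR-adjusted P = 0.043). Of the 10 log2 differences, 7 were below 0, and their median was -0.10 against 0.01 over all tested genes. The limma values were -0.14 (SE 0.18) for Neurod1, -0.12 (SE 0.19) for Neurod2, -0.08 (SE 0.35) for Zic1 and -0.21 (SE 0.38) for Zic2. They were 0.17 (SE 0.41) for Zic4, -0.06 (SE 0.098) for Etv1, 0.09 (SE 0.15) for Cadps2 and -0.33 (SE 0.28) for Fat2. With the cerebellum fitted alone, 5 of the 10 (Neurod2, Zic2, Eomes, Fat2 and Calb2) had an unadjusted P under 0.05, against 19.8% of tested genes. Eomes and Calb2 passed in that fit and Fat2 did not (log2 -0.34, SE 0.11, limma, FDR-adjusted P = 0.097). Fat2 passed in that fit without CeHi replicate 1 (log2 -0.44, limma, FDR-adjusted P = 0.012), and Zic2 without CeCo replicate 2 (log2 -0.31, limma, FDR-adjusted P = 0.044).

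**Figure D4:**
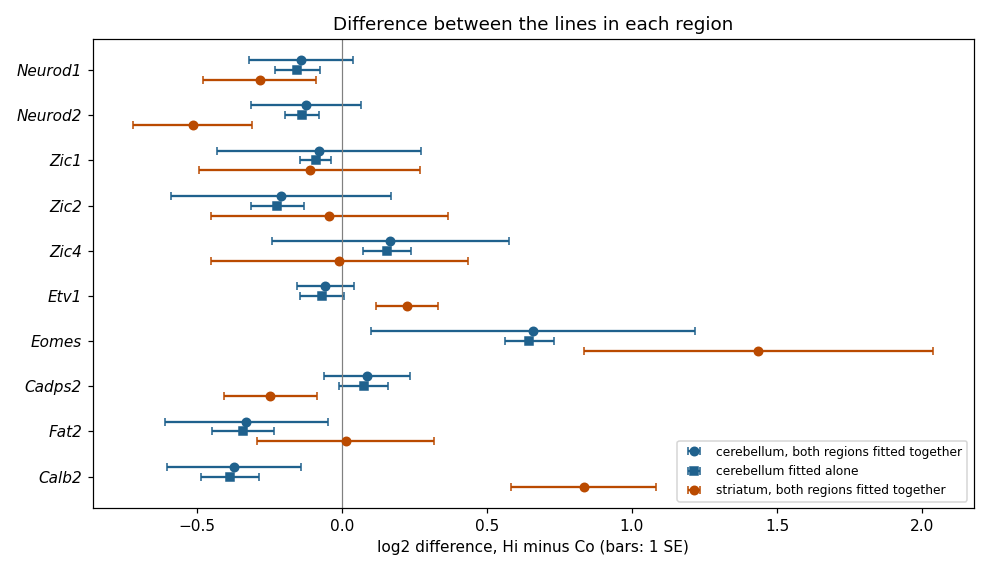
Log2 difference between the lines (Hi minus Co) of each member, with bars of 1 SE, for cerebellum in the fit of both regions (blue circles), cerebellum fitted alone (blue squares) and striatum in the fit of both regions (orange circles). Eomes lies at 0.66 and 0.65 in cerebellum with an SE of 0.56 and 0.085, and Calb2 lies below 0 in cerebellum and at 0.83 in striatum.

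Between the lines in striatum, none of the 10 members passed (limma), where 2.67% of tested genes were called, and edgeR and DESeq2 on recovered fragments called none either. Neurod2, Etv1, Eomes and Calb2, that is 4 of the 10, had an unadjusted P under 0.05 in limma, against 14.0% of tested genes. In no member did the lines lie apart without overlap, where 7.11% of tested genes lay higher and 5.88% lower in StHi. The Neurod2 difference was -0.51 (SE 0.21, limma, FDR-adjusted P = 0.26), and without StHi replicate 0 it was -0.81 and passed (limma, FDR-adjusted P = 0.0095). The Etv1 difference was 0.22 (SE 0.11, limma, FDR-adjusted P = 0.35) and that of Neurod1 -0.28 (SE 0.19, limma, FDR-adjusted P = 0.60). Zic1, Zic2, Zic4, Cadps2 and Fat2 had differences between -0.25 and 0.01. The signs of all 5 changed when 1 striatum sample was left out or, for the Zic genes and Fat2, under other weights. Of the cortical and hippocampal excitatory neuron markers, 10 of 10 lay below 0 with a median of -0.54, and none passed. Their summed level overlapped between the lines, at 62269 to 95946 in StHi against 83122 to 112745 in StCo. Choroid plexus markers lay above 0 in 8 of 8, none passed, and their summed level was 11893 to 37800 in StHi against 8115 to 11163 in StCo. Enpp2 made up most of this sum (mean 13407 in StHi and 7740 in StCo). Ttr was at 492, 1496 and 14994.5 in StHi against 44.5 to 504 in StCo, so StHi replicate 0 lay within the StCo range. Of the 7 oligodendrocyte markers, 6 lay above 0 and 6 had an unadjusted P under 0.05, 1 passed, the median was 0.39, and their summed level did not overlap between the lines, at 308332 to 348281 in StHi against 201856 to 290769 in StCo. The part of any of these cell types in the member values was not tested.

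The line-by-region interaction was passed by none of the 10 members in limma, edgeR or DESeq2, and 0.552% of tested genes were called in limma. Calb2 was the only member with an unadjusted P under 0.05, against 9.39% of tested genes. Averaged over regions, none of the 10 passed the line effect in limma, where 8.60% of tested genes were called, and 2 members, Neurod2 and Eomes, had an unadjusted P under 0.05, against 22.2% of tested genes. Eomes had a log2 difference of 1.05 (SE 0.41, limma, FDR-adjusted P = 0.15) and was the member called by edgeR (1.12, FDR-adjusted P = 0.039) and by DESeq2 (1.11, FDR-adjusted P = 0.049). Without StHi replicate 0 limma called Eomes (1.41, FDR-adjusted P = 0.030) and Neurod2 (-0.47, FDR-adjusted P = 0.0091). The cerebellum and striatum comparisons share no samples, and the interaction and the average draw on all 15.

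Other genes of the same cells were read from 2 lists. Of 20 further granule cell genes, 19 were tested, since Atoh1 had at most 1 fragment in any sample. None of the 19 passed in cerebellum (limma), 3 had an unadjusted P under 0.05 (19.6% of all tested genes), 14 lay below 0 and the median was -0.14. Gabra6 (-0.03, SE 0.21) was among them. In striatum 2 of the 19 passed, both higher in StHi, where 2.67% of all tested genes passed, and the median was 0.12. En2, the engrailed factor of midbrain and cerebellum, was at 35.8, 41.5, 37.8 and 54.8 normalized counts in StCo and at 59.7, 149.6 and 164 in StHi (log2 difference 1.42, SE 0.27, limma, FDR-adjusted P = 0.010). Cbln1, the cerebellin that granule cells release at parallel fibre synapses, was at 394, 396, 282.5 and 449.8 in StCo and at 532, 531 and 551 in StHi (log2 difference 0.52, SE 0.12, limma, FDR-adjusted P = 0.024). Neither overlapped between the lines, where 7.11% of tested genes lay higher in StHi without overlap. Cbln1 differed by -0.27 (SE 0.11) in cerebellum, and its interaction of -0.79 (SE 0.16) passed (limma, FDR-adjusted P = 0.038). Over 27 alternatives the striatum call was lost in 2 for En2 (highest FDR-adjusted P = 0.071) and in 4 for Cbln1 (highest FDR-adjusted P = 0.12), and the interaction of Cbln1 was lost in 12 of 26 (highest FDR-adjusted P = 0.098). The calls of Cbln1 in striatum were lost without StHi replicate 0, 1 or 2, and that of En2 without StHi replicate 1.

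Of 12 further unipolar brush cell genes, all 12 were tested and none passed in cerebellum or striatum (limma), with 0 and 5 at an unadjusted P under 0.05, against 19.6% and 14.0% of all tested genes. Their median difference was -0.02 in cerebellum, with 6 of 12 below 0, and 0.10 in striatum. Lmx1a, a roof plate and rhombic lip factor, differed by -0.56 (SE 0.56) in cerebellum, Otx2 by 0.01 (SE 0.41) and Slc17a6, the vesicular glutamate transporter of many subcortical neurons, by 0.44 (SE 0.35). Otx2 is also among the listed choroid plexus markers. Lmx1a, Otx2 and Ttr were each highest of their group in CeCo replicate 2 and in CeHi replicate 1. The part of choroid plexus in the Lmx1a and Otx2 values was not tested. The Slc17a6 value rested on CeHi replicate 3, at 2267 normalized counts against 717 to 981 in the other CeHi samples, and was 0.10 (SE 0.27) without it. Between regions, 8 of the 12 were called higher in cerebellum, against 42.2% of all tested genes, and 3 were called lower. Of all tested genes 80.6% were called between regions in either direction. Tbr1, which marks neurons of the deep cortical layers too, was the lowest of the 12 at -6.53. Of 15 relatives in the same gene families, 12 were tested, and 1 passed between the lines in cerebellum. This was Neurog2, a proneural relative of the Neurod factors, at 84.8, 69.5, 76.8 and 147.8 normalized counts in CeCo and at 32.8, 25.3, 27.8 and 32.8 in CeHi. The groups did not overlap, where 6.09% of tested genes lay lower in CeHi without overlap, and the difference of -1.58 (SE 0.29) passed (limma, FDR-adjusted P = 0.0023) and passed in all 36 alternatives run, with an FDR-adjusted P of at most 0.011. Neurog2 passed the filter on low values only through the 4 CeCo samples, the group where it was high, and was under 1 CPM in every other sample, so this call carries that selection. None of the relatives passed in striatum.

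Marker lists of other cell types gave calls of single genes. In cerebellum, where 5.82% of all tested genes were called, 1 of 10 Purkinje cell markers was called, the G protein subunit gene Gng13 (0.44, SE 0.084, limma, FDR-adjusted P = 0.0038). The lineage factor Olig1, 1 of 7 oligodendrocyte markers, was called there too (0.31, SE 0.074, limma, FDR-adjusted P = 0.020). In striatum, where 2.67% of all tested genes were called, Olig1 was called (0.44, SE 0.080, limma, FDR-adjusted P = 0.0047). S100b, 1 of 7 astrocyte and Bergmann glia markers, was also called in striatum (0.31, SE 0.079, limma, FDR-adjusted P = 0.047). The call of S100b was lost in 17 of 27 alternatives (highest FDR-adjusted P = 0.17). The call of Olig1 in cerebellum was lost in 7 of 36 (highest FDR-adjusted P = 0.079). No gene of the striatal, cortical, olfactory bulb, choroid plexus or brainstem lists was called between the lines. In cerebellum, striatal projection neuron markers had a summed level of 11617 to 12737 normalized counts in CeHi and 9349 to 10820.4 in CeCo, and oligodendrocyte markers of 209920 to 267538 and 184337 to 225105. Cortical markers were at 27187 to 33216 in CeHi and 28450 to 33399 in CeCo. Most of that sum was Slc17a7 (mean 25163 in CeHi and 28024 in CeCo), which is also among the listed granule cell genes. Of the 10 cortical log2 differences, 1 lay below 0 (median 0.31), and 0 had an unadjusted P under 0.05 in limma. Of the 11 striatal ones, 1 lay below 0 (median 0.40). Among them 4 had an unadjusted P under 0.05 in limma, against 19.6% of tested genes. Brainstem and midbrain markers, of which 2 of 10 were tested, were at 384 to 581 in CeHi and 369 to 473 in CeCo. Slc6a5 made up most of this sum (mean 433 in CeHi and 380 in CeCo), so the sum mainly reads that gene. Eomes lay higher in the CeHi samples beside these marker values, and their part in its difference was not tested.

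The genes with the pattern most like each member were ranked over 15203 other tested genes by the root mean square difference of log2 values over the 15 samples, each gene centred on its mean. For Eomes the nearest were Irx3 (0.69), Msx2 (0.80) and Lbx1 (0.81), and Irx3 had mean levels of 842 normalized counts in CeCo and 737 in CeHi. Sel1l3 was nearest to Neurod2 (0.12), Rnf182 to Etv1 (0.12) and Zfpm2 to Cadps2 (0.12). Zic5 was nearest both to Zic1 (0.33) and to Zic2 (0.35), and Slc12a8 to Zic4 (0.34). Car8 was nearest to Neurod1 (0.28), Gabra6 to Fat2 (0.31) and Gm19461 to Calb2 (0.27). These distances are mostly set by the gap between the regions.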

How the data were processed

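Paired-end reads of 100 bases were generated from RNA of single brain regions of single mice. Alignment to GRCm38 used TopHat2, and the authors corrected gene counts for library size in Cuffnorm 2.2.1. Each deposited value is such a signal: a fragment count that the authors divided by 1 factor for the whole sample, with no correction for gene length. Between 99.5% and 99.7% of values up to 20 fragments were whole multiples of 1 fragment within 0.02 fragments. The study left 1 StHi sample out after principal component analysis.

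Genes with at least 1 CPM in 3 samples were kept, values were scaled by trimmed mean of M-values (0.990 to 1.01 of the mean), and log2(value + 1) was tested with limma 3.58.1 in R 4.3.3 (trended, robust) over 4 group means. Fold changes are on this scale and understate changes of genes near 0. P-values were adjusted by the false discovery rate over 15213 genes, and a gene passed at an adjusted P under 0.05. edgeR 4.0.16 (quasi-likelihood) and DESeq2 1.42.0 were alternatives on recovered fragments. The fits were tested on simulated data.

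The members and the gene lists were chosen with earlier results of these data known. The text names all 10 members. From each list it names genes called between the lines in a region, at most 4 by smallest P, and otherwise at most 3 in list order, and for likeness the nearest 3 genes to Eomes and the nearest 1 to each other member. Genes outside this rule (Drd2, Nrgn, Lhx2, Tac1, Ttr, Enpp2, Tbr1, Slc17a7, Slc6a5, Atoh1 and Cerkl) were named after their values were seen. Exact permutation tests were two-sided, over 20 comparisons of single members, and were not adjusted. Exon lengths and overlaps came from the GENCODE annotation of GRCm38. The floor of 3 fragments covers counting error only, while SDs and SEs rest on the spread between samples.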

Additional observations from a re-analysis of the deposited data

Results flagged for a closer look

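In a check of single samples against their group, made for groups of 4 samples over the 10 members and the 6 listed genes called between the lines, 2 of 48 groups held a sample far from the others, and chance flags about 1 in 20 such groups. Neurod1 was low in CeCo replicate 2, at 25069.6 normalized counts against 30648 to 31437 in the other 3. Zic4 was low in CeHi replicate 0, at 2189 normalized counts against 2301 to 2318 in the other 3. For Cbln1, the line difference differed between the regions, with an interaction of -0.79 on the log2 scale (limma, FDR-adjusted P = 0.038): it was -0.27 in cerebellum and 0.52 in striatum. The StHi group, with 3 samples, was not checked in this way.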

How the results depend on the processing

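The region difference of all 10 members kept its direction and passed under all 26 alternatives. Between the lines in cerebellum, the number of members called was 0 and became 2 with each region fitted alone (Eomes and Calb2) and 1 with DESeq2. With alternatives added after seeing the data it was 1 to 3 with the cerebellum alone and 1 sample left out, and 3 with the cerebellum alone and the replicate block (Eomes, Calb2 and Fat2). Leaving out 1 sample from the fit of all groups gave 0 in cerebellum, 0 to 1 in striatum, 0 to 1 for the interaction and 0 to 2 averaged over regions. With sample weights 2 members were called in striatum (Neurod2 and Calb2) and 2 averaged over regions (Neurod2 and Eomes), and edgeR and DESeq2 each called 1 averaged over regions.

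Signs changed only for differences that did not pass. With sample weights these were the striatum differences of Zic1 (0.16), Zic2 (0.23), Zic4 (0.32) and Fat2 (-0.12), the interactions of Zic1 (-0.25) and Zic4 (-0.18) and the average of Zic1 (0.031). The striatum differences of Zic4 and Fat2 were 0.024 and -0.013 with the replicate block, 0.013 and -0.055 with edgeR and 0.011 and -0.052 with DESeq2. Leaving out 1 sample, the cerebellum differences ranged from -0.10 to 0.0023 for Etv1 and from -0.00074 to 0.13 for Cadps2, and for Cadps2 the value was -0.0073 with the cerebellum alone and without CeCo replicate 2. The striatum differences ranged from -0.45 to 0.34 for Zic1, -0.43 to 0.38 for Zic2, -0.40 to 0.53 for Zic4, -0.43 to 0.014 for Cadps2 and -0.29 to 0.31 for Fat2. The interactions ranged from -0.052 to 0.36 for Neurod1, -0.42 to 0.37 for Zic1, -0.59 to 0.22 for Zic2 and -0.37 to 0.56 for Zic4. The averages ranged from -0.26 to 0.13 for Zic1, -0.32 to 0.086 for Zic2, -0.11 to 0.35 for Zic4 and -0.17 to 0.050 for Cadps2.

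Samples of the 2 lines share replicate numbers, but the deviations of same-numbered samples correlated from -0.22 to 0.18 in cerebellum and from -0.043 to 0.20 in striatum, so the numbers were not taken to pair the lines. Between the regions the correlations were 0.17 to 0.28 for CeCo with StCo and -0.075 to 0.051 for CeHi with StHi. Samples with different numbers were not compared, so these values cannot tell whether the numbers pair the regions in either line. The replicate block, fixed or random within line, called 10 members between the regions and 0 for the interaction, as without it. The replicate block over all groups called 0 members between the lines in either region. The small groups and the few fragments of Fat2 and Eomes in striatum limit what could be detected there.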
